A study of Mus musculus with 9 samples.

Results

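Transcripts of 59 genes for ribosome biogenesis were followed in intestinal epithelial cells of newborn mice, out of 18193 genes read by the arrays. Of these, 22 were listed by name and 37 carried symbols beginning with Nop, Nol, Utp or Rrp and a digit. Each gene was represented by its brightest probe set that carried no other symbol. Nol3, Nol4 and Nol4l were taken in by their symbols alone and are not known as ribosome biogenesis factors. The 3 genotypes were compared at postnatal day 0, with 3 arrays each: control pups with floxed Tfr1 alleles (Tfr1fl/fl, labelled wildtype), knockout pups (Tfr1 IEC-KO) and rescue pups (Tfr1 IEC-KO;ROSA26 Tfr1R654A/+). Tfr1, the transferrin receptor, brings transferrin-bound iron into cells, and the rescue pups carried, on the same knockout, a Tfr1 with the R654A change placed at ROSA26. The labels name no Cre driver, no sex and no litter, and do not say whether an array holds 1 pup or a pool, so p-values measure only the spread between arrays.

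Ribosomes are built in the nucleolus. RNA polymerase I transcribes the precursor ribosomal RNA, small nucleolar ribonucleoproteins modify it, and the small subunit processome and the 60S maturation factors cleave, fold and package it with ribosomal proteins. The programme is large in growing cells, and Myc, a transcription factor that binds the E-box CACGTG, is known to drive many of its genes.

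Cells were released from small intestine and proximal colon with EDTA, with no sorting step named in the labels. In the control arrays the mean log2 value of 18 intestinal epithelial markers lay between 12.39 and 12.43, and in the knockout and rescue arrays between 12.49 and 12.69. This mean hides opposite changes, as single markers changed by -1.54 to 2.14 between knockout and control. Array medians over all probe sets lay between 5.93 and 6. The arrays of a group correlated across genes, which are not independent replicates, with r of at least 0.994 in control, 0.951 in knockout and 0.987 in rescue. Xist, transcribed from the inactive X chromosome, read 12.02 to 12.75 in control and knockout arrays and 6.45 to 6.83 in rescue arrays. The Y-linked Eif2s3y read at most 2.88 in control and knockout arrays and at least 9.36 in rescue arrays. Sex, as read from these transcripts, and rescue genotype hence cannot be told apart in any gene's comparison with the rescue arrays. All 3 comparisons share arrays with each other.

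The members fell into 29 genes of the small subunit processome and 40S maturation, 14 of 60S maturation, 5 nucleolar scaffold and chaperone genes, 3 of box C/D and 3 of box H/ACA ribonucleoproteins, 2 core subunits of RNA polymerase I, and the 3 that are not known factors. RefSeq promoter windows of 300 bases (build GRCm38.p6) were matched for 47 of the 59. The E-box CACGTG, which reads the same on both strands, was found in the windows of 12 of those 47 genes (25.5%), against 10.2% of the 14452 tested genes with a window. For comparison, it was found in 21.9% of 64 other ribosome biogenesis genes and in 40% of 10 Myc network genes. The share was 15.4% of 13 other RNA polymerase I genes and 15% of 20 large ribosomal protein genes. In RNA exosome, small ribosomal protein and cell cycle genes it was 8.33% of 12, 5.26% of 19 and 4.76% of 21. The windows of the 4 known factors that differed between knockout and control are shown, because these carry the changes described next, with CACGTG in capitals where present. They lie at chr1:34439579-34439878 (plus strand) for Imp4, chr11:93885717-93886016 (minus strand) for Utp18, chr1:78658190-78658489 (plus strand) for Utp14b and chr13:49652828-49653127 (plus strand) for Nol8.
Imp4: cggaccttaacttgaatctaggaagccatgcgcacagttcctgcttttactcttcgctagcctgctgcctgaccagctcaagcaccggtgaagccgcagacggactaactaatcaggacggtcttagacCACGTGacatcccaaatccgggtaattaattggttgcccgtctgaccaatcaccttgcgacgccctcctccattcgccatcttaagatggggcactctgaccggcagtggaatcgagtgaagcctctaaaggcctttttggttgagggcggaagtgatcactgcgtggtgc
Utp18: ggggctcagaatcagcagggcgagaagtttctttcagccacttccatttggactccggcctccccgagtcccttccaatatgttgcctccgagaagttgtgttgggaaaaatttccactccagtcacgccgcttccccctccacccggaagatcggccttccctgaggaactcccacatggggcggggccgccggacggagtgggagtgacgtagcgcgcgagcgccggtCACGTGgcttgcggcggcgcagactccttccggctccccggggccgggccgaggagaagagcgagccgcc
Utp14b: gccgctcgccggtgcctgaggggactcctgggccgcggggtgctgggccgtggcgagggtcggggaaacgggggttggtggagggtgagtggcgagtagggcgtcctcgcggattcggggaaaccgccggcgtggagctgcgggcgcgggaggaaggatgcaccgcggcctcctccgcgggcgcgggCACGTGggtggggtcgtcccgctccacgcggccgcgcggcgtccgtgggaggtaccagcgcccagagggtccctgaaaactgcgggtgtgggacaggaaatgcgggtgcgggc
Nol8: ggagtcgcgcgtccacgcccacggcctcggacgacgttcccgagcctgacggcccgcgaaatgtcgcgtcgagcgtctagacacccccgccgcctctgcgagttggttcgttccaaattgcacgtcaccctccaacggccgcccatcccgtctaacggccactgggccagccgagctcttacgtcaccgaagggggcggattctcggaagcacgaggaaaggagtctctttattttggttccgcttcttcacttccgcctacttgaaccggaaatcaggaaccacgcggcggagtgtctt
Counted from the start site inside each window, the E-box begins at -121 in Imp4, -20 in Utp18 and -63 in Utp14b. These letters are not in the Nol8 window. A match is a description of the letters and was not tested as a binding site.

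Between knockout and control, 4 members fell and 1 rose, while the other 54 did not pass the test (limma with Benjamini-Hochberg adjustment over all genes, threshold 0.05). Imp4 and Utp18 of the small subunit processome, Nol8, a nucleolar protein of 60S maturation, and Nol4l were lower, and Utp14b, a retrogene copy of the processome gene Utp14a, was higher. These counts are 6.78% of members lower and 1.69% higher, against 8.77% and 5.29% of all genes. The median member changed by -0.09 (log2) and the median gene by -0.04. The members' median was 0.02 without control replicate 2 and 0.17 without knockout replicate 3. An unadjusted p under 0.05 was reached by 10 members (16.9%, against 30.1% of all genes). In a fit of only these 2 groups, Nol4l alone passed among the members. In bulk RNA, fewer cells of a type and less RNA per cell cannot be told apart, and this holds for every difference given here.

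Imp4, which joins the precursor rRNA to the U3 small nucleolar RNA, read 8.77, 9.08 and 8.93 in the control arrays, 8.49, 8.53 and 8.31 in the knockout arrays and 8.79, 8.82 and 8.79 in the rescue arrays. Every knockout array was below every control and every rescue array. The change from control to knockout was -0.48 ± 0.11 (log2, SE, n = 3 per group, limma adjusted p = 0.022). Of its other probe sets, the brighter changed by 0.04 and the dimmer by -0.11, so the fall was seen in only 1 of 3. On the mean of its probe sets the change was -0.18 (limma adjusted p = 0.14). It did not pass without control replicate 2 (-0.40, limma adjusted p = 0.083) or control replicate 3 (-0.48, 0.082).

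Utp18, a WD-repeat protein of the processome, read 8.96, 9.13 and 8.81 (control), 8.54, 8.59 and 8.33 (knockout) and 9.06, 8.81 and 8.89 (rescue). Again no knockout array reached the lowest array of either other group. It changed by -0.48 ± 0.12 (log2, SE) between knockout and control (limma adjusted p = 0.035). A second, dim probe set changed by -0.01, and on the mean of the probe sets the change was -0.25 (limma adjusted p = 0.18). The call was lost without any 1 control array, without knockout replicate 1 or 2 or without rescue replicate 2 or 3, with changes of -0.56 to -0.40 and limma adjusted p-values of 0.05 to 0.12.

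Nol8 read 8.09, 7.81 and 7.68 (control), 7.23, 7.41 and 6.78 (knockout) and 8.19, 7.74 and 8.15 (rescue). The knockout arrays were the 3 lowest of the 9. Nol8 changed by -0.72 ± 0.20 (log2, SE, limma adjusted p = 0.044), and all 3 of its probe sets were lower, by -0.72, -0.55 and -0.88. The call was lost without any 1 control array, without knockout replicate 1 or 3 or without rescue replicate 1 or 3, with changes of -0.82 to -0.55 and limma adjusted p-values of 0.052 to 0.15.

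Nol4l gave the largest fall of any member, although it is not a known ribosome biogenesis factor. It read 10.64, 10.54 and 10.63 (control), 9.70, 9.30 and 9.76 (knockout) and 10.59, 10.20 and 10.35 (rescue). Control and knockout arrays were far apart, with rescue arrays in between or inside the control range. The change was -1.02 ± 0.15 (log2, SE, limma adjusted p = 0.0042), while a second probe set changed by -1.08 and the other, dim one by -0.18. It passed with any 1 of the 9 arrays left out.

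Utp14b was the only member whose knockout arrays all lay above the control arrays. It read 7.70, 7.85 and 7.48 (control), 9.5, 8.27 and 9.59 (knockout) and 9.30, 8.58 and 8.01 (rescue), so the knockout and rescue arrays overlapped. The change from control to knockout was 1.45 ± 0.40 (log2, SE, limma adjusted p = 0.046). The call was lost without any 1 control array, without knockout replicate 1 or 3 or without rescue replicate 2, with changes of 1.22 to 1.54 and limma adjusted p-values of 0.069 to 0.14. In RefSeq the Utp14b gene record overlaps that of Acsl3, a long-chain acyl-CoA synthetase gene, and shares its first base, while the 2 promoter windows do not overlap. Acsl3 read 9.53, 9.60 and 9.53 (control), 10.15, 9.37 and 11.14 (knockout) and 10.65, 9.82 and 9.91 (rescue). Its arrays ranked much like those of Utp14b in the knockout group, with replicate 3 highest and replicate 2 lowest, but its own change of 0.67 ± 0.40 did not pass (limma adjusted p = 0.31). The share of Acsl3 transcript in the Utp14b signal was not tested. Utp14a itself did not pass, at -0.01 ± 0.24 (limma adjusted p = 0.99).

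**Figure D1:**
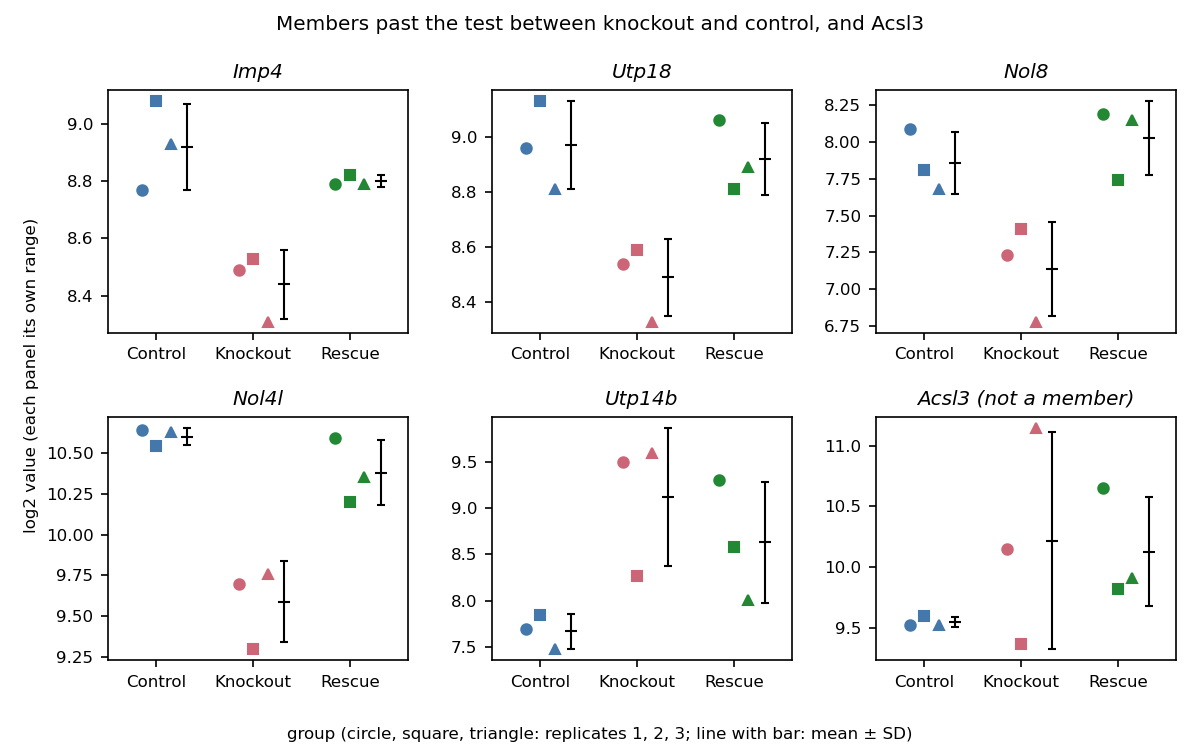
Log2 values of the 5 members past the test between knockout and control, and of Acsl3, in the 3 arrays of each group, with the group mean and SD as a line with bars. In Imp4, Utp18, Nol8 and Nol4l the 3 knockout arrays lie below all control arrays, and in Utp14b they lie above them.

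All 3 knockout arrays lay below all control arrays for 9 members (15.3%, against 19.7% of all genes) and above them for 1 (1.69%, against 12.7%). Beside the 4 members already described, the lower ones were Rrp1, Rrp12, Rrp36, Utp6 and Utp11. Rrp1, a 60S maturation factor, read 10.38, 10.23 and 10.22 (control) and 9.90, 9.90 and 9.31 (knockout), a change of -0.57 ± 0.16 that just missed the threshold (limma adjusted p = 0.052). A second Rrp1 probe set changed by -0.81 (adjusted p = 0.0079 over all probe sets). Rrp36, which acts in early 40S maturation, read 9.09, 9.31 and 9.14 (control) and 8.33, 8.79 and 8.75 (knockout) (-0.55 ± 0.16, limma adjusted p = 0.052). For Utp6, another processome subunit, the change was -0.63 ± 0.22 (limma adjusted p = 0.088), for Rrp12, a factor in subunit export, -0.59 ± 0.22 (0.12), and for Utp11, of the processome, -0.40 ± 0.23 (0.29).

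The rest of the programme depended on which knockout array was read. Knockout replicate 3 was the lowest of all 9 arrays for 50 members (84.7%), against 17.1% of all genes and 24.4% of genes above the dimmest 40%. It was below every control array for 54 members (91.5%), against 37.5% of all genes. The members' median deviation from the control mean was 0.08 and 0.20 in knockout replicates 1 and 2 and -0.61 in replicate 3. In the control arrays it was -0.06, 0.19 and -0.12, and in the rescue arrays 0.14, 0.04 and 0.11. Over all genes the median deviation of knockout replicate 3 was 0. The gap between the mean of knockout replicates 1 and 2 and replicate 3 had a median of 0.69 (log2) over members and -0.08 over all genes. The median SD of a member was 0.466 in knockout, 0.185 in control and 0.161 in rescue, against 0.225, 0.104 and 0.140 over all genes.

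**Figure D2:**
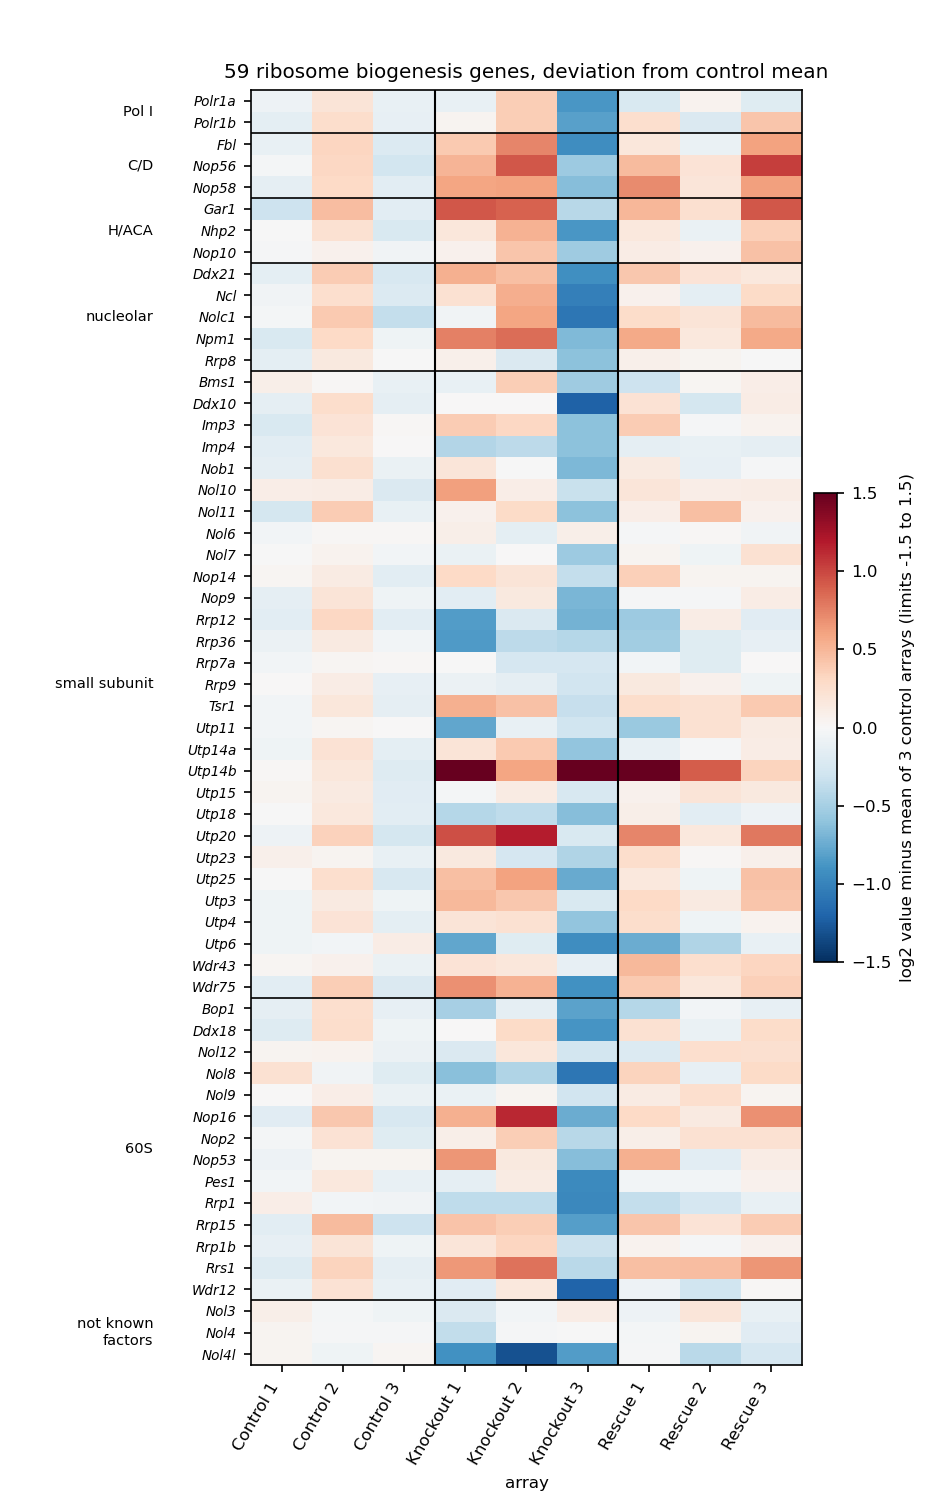
Log2 deviation of each of the 59 members (rows, by role) from the mean of the 3 control arrays in each of the 9 arrays (columns), with colours limited to -1.5 and 1.5, which Utp14b passes. Knockout replicate 3 is blue in most rows and is the lowest of the 9 arrays for 50 members, while replicates 1 and 2 are mixed.

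For 17 members (28.8%, against 5.03% of all genes), knockout replicates 1 and 2 were above every control array and replicate 3 was below every one. They were Ddx21, Fbl, Gar1, Imp3, Nop10, Nop14, Nop16, Nop53, Nop56, Nop58, Npm1, Rrs1, Tsr1, Utp25, Utp3, Wdr43 and Wdr75. All 3 box C/D genes were among them. Fbl, the methyltransferase fibrillarin, read 9.93, 10.36 and 9.83 (control), 10.43, 10.77 and 9.11 (knockout) and 10.21, 9.94 and 10.64 (rescue). Its knockout arrays hence lay on either side of the control arrays, and the mean change was 0.06 ± 0.40 (limma adjusted p = 0.95). Nop56 and Nop58, the core proteins that hold the box C/D particle, changed by 0.30 ± 0.37 and 0.18 ± 0.33.

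Among the nucleolar scaffold and chaperone genes, the gap was wide in 4 of 5. Npm1, the nucleolar chaperone nucleophosmin, read 10.95, 11.47 and 11.11 (control), 11.93, 12.01 and 10.52 (knockout) and 11.74, 11.34 and 11.75 (rescue). Ncl, the RNA-binding protein nucleolin, read 11.67, 11.97 and 11.52 (control) and 11.95, 12.26 and 10.69 (knockout). Nolc1, which binds both classes of small nucleolar particle, read 8.23, 8.65 and 7.90 (control) and 8.21, 8.85 and 7.18 (knockout). In each of these, replicate 3 was the lowest of the 9 arrays and replicate 2 the highest. Ddx21, an RNA helicase that links RNA polymerase I with rRNA processing, read 8.66, 8.58 and 7.21 (knockout) and 7.98, 8.51 and 7.89 (control). Rrp8, a methyltransferase of the nucleolus, had the smallest gap of the group, 0.54.

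The H/ACA ribonucleoproteins guide pseudouridylation. Gar1 read 8.30, 9.08 and 8.46 (control), 9.55, 9.5 and 8.20 (knockout) and 9.11, 8.85 and 9.54 (rescue). Nhp2 read 10.34, 10.58 and 10.12 (control) and 10.52, 10.87 and 9.47 (knockout), and Nop10 had a gap of 0.78. For RNA polymerase I, Polr1a, the largest subunit, read 6.96, 7.23 and 6.92 (control) and 6.92, 7.40 and 6.16 (knockout). Polr1b, the second-largest, read 7.09, 7.5 and 7.11 (control) and 7.28, 7.60 and 6.42 (knockout). In all 5 genes replicate 3 was below every control array, and none passed the test of the group means.

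All 14 members of 60S maturation had knockout replicate 3 below the mean of the other knockout arrays, with a median gap of 0.80. That array was so placed for 88.1% of all members and 42% of all genes. Nop16 had the widest of all members, 1.58, reading 6.64, 7.22 and 6.57 (control) and 7.34, 7.94 and 6.06 (knockout). Pes1, Bop1 and Wdr12 form the PeBoW complex, which is needed for 28S and 5.8S rRNA maturation. Pes1 read 8.78, 8.98 and 8.72 (control), 8.69, 8.95 and 7.87 (knockout) and 8.79, 8.78 and 8.89 (rescue). Wdr12 read 7.59, 7.90 and 7.57 (control) and 7.52, 7.84 and 6.49 (knockout), so that for these genes replicates 1 and 2 stayed near the control range. Bop1 was lower in 2 knockout arrays and at the lower edge of the control range in the other, at 8.04, 8.43 and 8.05 (control) and 7.67, 8.04 and 7.37 (knockout) (-0.48 ± 0.19, limma adjusted p = 0.14). Rrs1, which recruits the 5S particle, read 8.76, 9.28 and 8.81 (control) and 9.60, 9.76 and 8.55 (knockout), and the helicase Ddx18 read 8.35, 8.80 and 8.47 (control) and 8.55, 8.83 and 7.65 (knockout).

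In the small subunit group the members differed more from each other. Replicate 3 was below the mean of the other knockout arrays in 25 of 29, against 42% of all genes. Wdr75, a processome subunit that supports rRNA transcription, read 8.07, 8.60 and 8.01 (control), 8.91, 8.75 and 7.32 (knockout) and 8.62, 8.40 and 8.58 (rescue). Utp20, a large scaffold of the processome, read 7.29, 7.71 and 7.11 (control), 8.34, 8.55 and 7.14 (knockout) and 8.10, 7.53 and 8.16 (rescue). Its replicate 3 lay inside the control range. Ddx10, a helicase, read 7.67, 8.06 and 7.67 (control) and 7.81, 7.80 and 6.59 (knockout). Imp3, the partner of Imp4, read 8.54, 8.97 and 8.78 (control) and 9.15, 9.07 and 8.15 (knockout), with replicates 1 and 2 above all control arrays. Bms1, a GTPase, Nob1, the nuclease that makes the 3′ end of 18S rRNA, Tsr1, a 40S maturation factor, and Wdr43, a processome subunit, changed by -0.10, -0.16, 0.21 and 0.08, and none passed. Nol6 hardly moved, reading 7.94, 7.99 and 8.0 (control) and 8.07, 7.83 and 8.06 (knockout).

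Other gene lists and marker lists were read on the same arrays. Ribosomal protein genes, of which 22 of each subunit were measured, had median deviations of 0.26, 0.17 and -0.70 (large) and 0.25, 0.15 and -0.65 (small) in the 3 knockout arrays. Cell cycle genes (24 measured) had 0.79, 0.82 and -0.44, and 0.50, -0.04 and 1.33 in the rescue arrays. Thus these lists also were lowest in knockout replicate 3. Fibroblast markers, all 17 of 17 higher in the knockout mean, had median deviations of 3.64, 2.88 and 0.30, and their mean log2 level was 6.69 to 7.25 in control, 7.34 to 10.24 in knockout and 7.45 to 7.89 in rescue. Smooth muscle markers (10) had 3.71, 2.30 and 0.14, and neuron and glia markers (9) had 3.01, 1.33 and 0.22. Intestinal epithelial markers (18) had 0, -0.01 and 0.15. Opposite changes lie behind these medians. By limma, 6 were higher and 3 lower in knockout than in control (33.3% and 16.7%, against 5.29% and 8.77% of all genes). Pancreas markers (7) had 0.12, 2.17 and 0.44 in the knockout arrays and -0.10, -0.03 and 1.89 in the rescue arrays. Fibroblast, smooth muscle and neuronal markers were thus much higher in knockout replicates 1 and 2 than in replicate 3. In replicate 3 the mean levels of fibroblast, smooth muscle, neuron and glia, leukocyte and pancreas markers (7.34, 6.52, 6.10, 6.81 and 6.71) were still above every control array. For fibroblast and smooth muscle markers the highest control array was close, at 7.25 and 6.46. Endothelium (6.87) and erythroid markers (5.56) in replicate 3 lay inside the control range. The part of these cells in the members' values was not tested. The 3′ minus 5′ signal of Gapdh, a measure of RNA integrity, was -0.03 in knockout replicate 3, within the range of -0.10 to 0.27 over all arrays, and that of β-actin was 0.49, within 0.45 to 0.85.

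**Figure D3:**
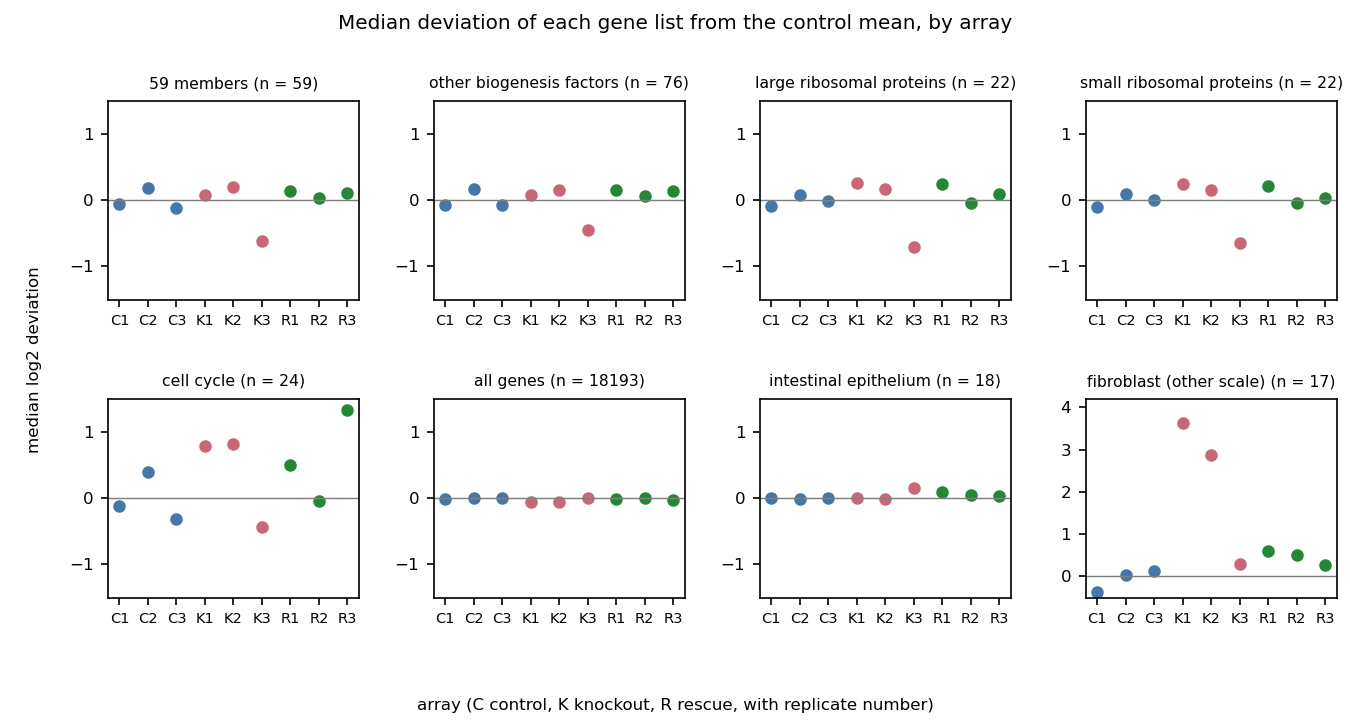
Median log2 deviation from the control mean of 8 gene lists in each array (C control, K knockout, R rescue), each point an array; the fibroblast panel has its own axis. The members, other biogenesis factors, ribosomal proteins and cell cycle genes are lowest in knockout replicate 3, at -0.61 for the members, whereas fibroblast markers are high in knockout replicates 1 and 2, at 3.64 and 2.88.

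Without knockout replicate 3, the picture between knockout and control changed for the members. That array was singled out by its low values in these same members. The adjusted p-values of the fit without it are hence descriptive and no independent test. In that fit 8 members rose (13.6%, against 12.8% of all genes) and 5 fell (8.47%, against 14.7%), and the members' median was 0.17, against -0.06 over all genes. Npm1 then rose by 0.79 ± 0.18 (limma adjusted p = 0.014), Rrs1 by 0.73 ± 0.17 (0.014), Utp20 by 1.08 ± 0.23 (0.011) and Gar1 by 0.91 ± 0.26 (0.034). Nop16, Tsr1, Utp3 and Wdr75 also rose. Imp4, Utp18 and Nol4l still fell, joined by Rrp1 (-0.38) and Rrp36 (-0.62), whereas Nol8 and Utp14b no longer passed. When knockout replicate 3 alone stood for the knockout, the members' median was -0.61. This value rests on 1 array that was singled out by the same low values, so it is descriptive too. Any test in that fit assumes that the array varies like the other groups.

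**Figure D4:**
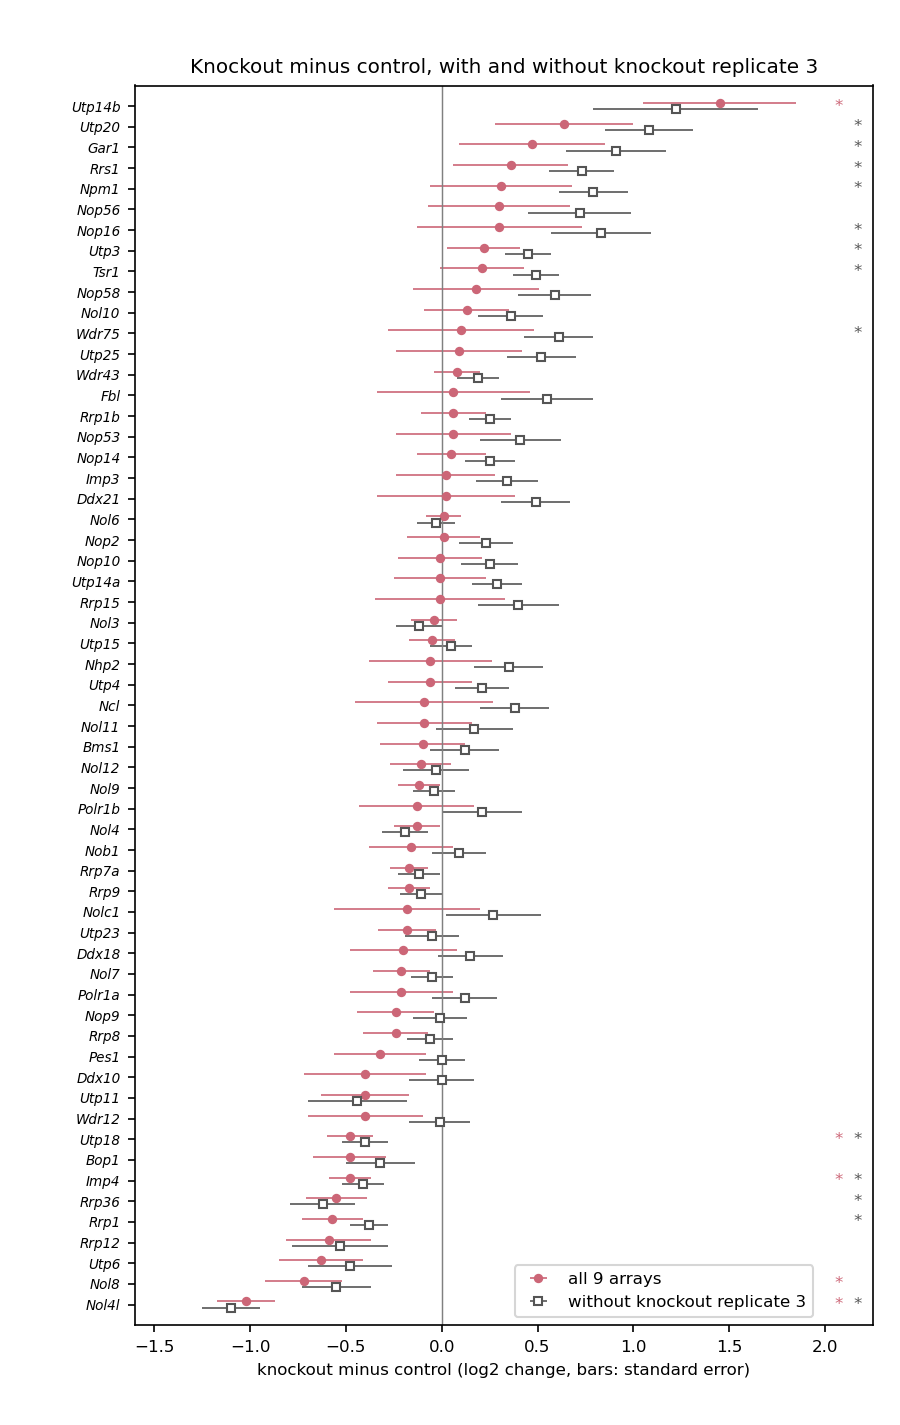
Log2 change from control to knockout of each member with its standard error, in all 9 arrays (filled circles) and without knockout replicate 3 (open squares); asterisks mark changes past an adjusted p of 0.05 in each fit. Leaving the array out moves most members to the right. The number that rose goes from 1 (1.69%, against 5.29% of all genes) to 8 (13.6%, against 12.8%).

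Between rescue and knockout 1 member rose, Nol4l (1.69%, against 1.23% of all genes), and 0 fell (against 1.08%), by limma, with 4 members (6.78%, against 18.9% of all genes) at an unadjusted p under 0.05. Nol4l rose by 0.79 ± 0.15 (log2, SE, limma adjusted p = 0.036), and with any array other than knockout replicate 3 left out it did not pass, at 0.65 to 0.88 (limma adjusted p = 0.066 to 0.12). Nol8 had a difference of 0.89 ± 0.20, which did not pass (limma adjusted p = 0.059) but did without knockout replicate 3 (0.71, limma adjusted p = 0.032), and Utp18 and Imp4 had 0.44 (0.11) and 0.35 (0.13). The members' median difference was 0.20, against 0.04 over all genes, and 55 of 59 (93.2%) were higher in the rescue mean, against 57.1% of all genes. Without knockout replicate 3 only 26 of 59 (44.1%) were higher, against 59.5% of all genes, and the median was -0.05. Differences with that array alone as the knockout are descriptive, because it was singled out by its low values in these members. All rescue arrays lay above all knockout arrays for 8 members (13.6%, against 10.6% of all genes): Imp4, Nol4l, Nol8, Nol9, Rrp1, Rrp9, Utp18 and Wdr43. They lay below for 0 members, against 7.5% of all genes.

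Between rescue and control no member passed the test by limma (0 higher and 0 lower, against 0.055% and 0.0715% of all genes), and 2 reached an unadjusted p under 0.05 (3.39%, against 6.62% of all genes). These were Wdr43, at 0.35 ± 0.12 (adjusted p = 0.53), and Utp14b, at 0.95 ± 0.40 (adjusted p = 0.71). Wdr43 read 8.67, 8.71 and 8.54 (control), 8.84, 8.81 and 8.52 (knockout) and 9.13, 8.89 and 8.96 (rescue). The members' median difference was 0.13, against -0.01 over all genes. All rescue arrays lay above all control arrays for Rrs1, Tsr1, Utp14b and Wdr43 (6.78%, against 6.74% of all genes) and below for Rrp1, Rrp36 and Utp6 (5.08%, against 9.90%). The 95% interval of a member's difference extended by a median of 0.50 (log2) to either side, from 0.21 to 0.97. This width is the same in every comparison, because the fit pools the spread of all groups. It includes the wide knockout spread (members' median SD 0.466, against 0.185 in control and 0.161 in rescue).

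Genes of the same pathway outside the 59 were counted in the same fit. Between knockout and control, 0 of 76 other biogenesis factors rose (against 5.29% of all genes) and 4 fell (5.26%, against 8.77%). Those that fell were Las1l, which cleaves the internal spacer ITS2 (-0.58, limma adjusted p = 0.0051), Surf6 (-0.52, 0.025), Ngdn (-0.46, 0.026) and Sdad1 (-0.62, 0.029). Of 13 other RNA polymerase I subunits and factors, 2 fell (15.4%), Taf1b (-0.53, 0.031) and Taf1c (-0.47, 0.031), both parts of the SL1 promoter factor. None of 14 RNA exosome subunits or of the 22 large and 22 small ribosomal protein genes passed in either direction. An unadjusted p under 0.05 was reached by 4 exosome (28.6%), 1 large (4.55%) and 0 small subunit genes, against 30.1% of all genes. Of 11 Myc network genes, Mycn fell (9.09% of the list, against 8.77% of all genes). It read 8.06, 8.59 and 8.74 (control), 7.60, 7.10 and 7.79 (knockout) and 8.30, 8.05 and 8.40 (rescue) (-0.96 ± 0.22, limma adjusted p = 0.025). Myc read 6.16, 7.09 and 6.54 (control), 8.29, 7.54 and 6.75 (knockout) and 7.32, 6.87 and 7.42 (rescue), with a change of 0.93 ± 0.38 that did not pass (limma adjusted p = 0.14). Its knockout replicate 3 lay inside the control range and replicates 1 and 2 above it. No gene of these lists passed between rescue and knockout or between rescue and control.

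Probe sets of a gene did not always move together. Of the 41 members with several probe sets, 24 changed in the same direction in all of them between knockout and control and 17 did not. Nol3 and Nol4, the other members not known as factors, changed by -0.04 ± 0.12 and -0.13 ± 0.12 between knockout and control, and neither passed. Nol10, Nol3 and Nol4 were dim in every group, where background flattens changes, so a small change there says little.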

How the data were processed

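RNA of 9 samples was hybridised to Affymetrix mouse genome arrays. Each deposited value is the log2 RMA value of a probe set on an array, per the submitters' processing notes, which name RMA and Partek 6.5; how background was treated, and whether probes were filtered, is not given in the sources used here. They were used as deposited. Of 45101 probe sets, 34958 carried a single symbol and 932 several; the brightest of each gene's probe sets gave 18193 genes. All were fitted with limma 3.58.1 (lmFit and eBayes, R 4.3.3, 3 group means, two-sided, Benjamini-Hochberg over all genes); data.table (version 1.17.8) read the files. A gene was called dim where its group mean lay in the dimmest 40% of that group. The procedure was tested on simulated data. The number of arrays limits the precision. On the same arrays, members had a median standard error of 0.221 and all genes of 0.147. Members also had a wider spread within the knockout group (median SD 0.466, against 0.225). No 2 arrays were identical. Alternatives left out each array, used knockout replicate 3 alone, added a replicate block or array weights, or changed the probe set rule, filter, scaling or groups fitted. Named with values were all 22 listed members, members past the test, the members not known as factors, up to 4 genes past the test from each pathway list, and Myc; Utp14a, Nol6, Utp20, Nop10, Nop16, Nop56, Nop58, Rrp8 and members whose groups did not overlap were chosen after their values were seen. The members and lists were chosen with earlier results of these data known.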

Additional observations from a re-analysis of the deposited data

How the results depend on the processing

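Leaving out 1 array at a time gave 0 to 8 members higher and 1 to 5 lower between knockout and control, with medians of -0.20 to 0.17. The counts are up to 13.6% and 8.47% of members. Over all genes 2.02% to 12.8% were higher and 3.12% to 14.7% lower. Between rescue and knockout, leaving out 1 array gave 0 to 2 members higher, 0 lower and medians of -0.05 to 0.38. Over all genes 0.253% to 6.61% were higher and 0.324% to 8.74% lower. Between rescue and control 0 members passed in either direction, with medians of 0.05 to 0.19. There 0.0055% to 0.374% of all genes passed in each direction. When knockout replicate 3 alone stood for the knockout, 19 members were lower than control (median -0.61), 17 were higher in rescue than in knockout (median 0.67), and Wdr75 turned from 0.10 to -0.90 (limma adjusted p = 0.048). With array weights, 11 members were higher in knockout (18.6%, against 15.2% of all genes) and 5 lower (8.47%, against 19.9%). In the fit of only the 2 groups compared, 0 members were higher (against 3.29% of all genes) and 1 lower (1.69%, against 5.8%) in knockout. Between rescue and knockout 0 differed, against 0.165% of all genes. With the dimmest 40% left out, 2 members were higher in rescue than in knockout (3.57%, against 2.19% of all genes). Quantile normalization also gave 2 (3.39%, against 1.06%). The replicate block gave 0 members higher (against 4.64% of all genes) and 5 lower (8.47%, against 8.57%) between knockout and control. Each gene's deviations from its group mean were correlated between same-numbered arrays of different groups. These r ranged from -0.22 to 0.40, over 0.1 in 2 of 9 pairs. Arrays with different numbers were not compared in this way. The labels do not say that the numbers pair arrays, and they were not taken to do so.

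Over all genes, 2559 passed between knockout and control, and 936 to 4998 did with an array left out, 1655 with only those groups and 6395 with array weights. Between rescue and knockout 420 passed, and 105 to 2793 with an array left out, 1096 with knockout replicate 3 alone, 257 with the block, 2453 with weights and 30 with only those groups. Between rescue and control 23 passed, and 2 to 136 with an array left out, 149 with knockout replicate 3 alone or only those groups, 355 with weights, 12 with the block, 15 after quantile normalization and 14 with an intensity trend. Of 18 alternatives, the fall of Nol4l passed in 18, Imp4 in 14, Utp18 and the rise of Utp14b in 9 each, and Nol8 in 8. The cause of these shifts was not tested.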
